A study of Mus musculus with 7 samples.

Results

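Transcripts of the mTOR and AMPK nutrient sensing pathways were examined in pancreatic beta cells of mice that had been weaned early or were still suckling. The 36 genes were taken from a list of the subunits of both kinase complexes, their direct regulators and a few direct targets, matched by gene symbol, and 35 of them had a probe set that carries a single gene symbol, out of 19938 genes measured. Rps6kb1 is the listed gene that was not analysed here. Each of the 35 was read by 1 probe set.

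All mice were 25 days old, on the ICR background, and carried insulin-Cre together with the Rosa26-LSL-YFP reporter, so that cells with a history of Cre activity are yellow fluorescent and can be sorted. The weaned group holds 3 mice separated from their mothers at postnatal day 18, and the suckling group 4 mice that were not. Fluorescent cells of each mouse gave 1 amplified RNA sample and 1 Affymetrix array, so each array is a separate animal. The array descriptions carry one code on all weaned arrays and another on all suckling arrays. The meaning of these codes is not given, and their effect and that of weaning cannot be told apart.

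The sorted cells carried beta-cell markers at a mean of 9.37 to 9.49 log2 units of intensity over 11 genes, with no order between the groups. Markers of alpha cells (7.68 to 7.93 over 5 genes), delta cells (7.02 to 7.42 over 4 genes) and pancreatic polypeptide cells (11.04 to 12.03 over Ppy and Pyy) were also present. Endothelial, leukocyte and stromal lists lay at 2.96 to 3.58, around 3.27, the level under which 95% of 1027 olfactory receptor genes fall, and 4 of 8, 6 of 10 and 6 of 9 of their genes were under it in both groups. Acinar markers differed most between arrays, with a mean over 13 genes of 3.97, 4.04 and 6.07 on weaned replicates 4, 5 and 12 and of 7.86, 7.65, 4.33 and 5.15 on suckling replicates 2, 9, 11 and 12. Duct markers, of which the keratins are not restricted to duct, were at 6.65 to 7.31 over 7 genes. At an unadjusted p under 0.05, 2 of 13 acinar, 2 of 7 duct, 2 of 9 stromal and 1 of 8 endothelial markers were lower in weaned mice. None of these lists had a higher marker at that level. Of the 11 beta-cell markers, 1 was higher in weaned mice at that level and none was lower. Among all genes 3.19% were lower and 4.39% higher at that level. Of the acinar genes, 1 was under the olfactory level in both groups. In such sorted bulk samples, fewer cells of a type and less RNA per cell cannot be told apart.

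The mechanistic target of rapamycin, mTOR, is a kinase that works in complex 1 (with Rptor) and complex 2 (with Rictor). Complex 1 is switched on at the lysosome when amino acids load the Rag GTPases and growth factors free Rheb from the TSC proteins, and it then promotes protein synthesis and holds back autophagy. AMPK is a kinase of alpha, beta and gamma subunits that senses a fall in cellular energy through its gamma subunit, restrains complex 1 and promotes autophagy through Ulk1. In beta cells complex 1 supports growth of cell mass in early life, and nutrient supply changes at weaning from fat-rich milk to carbohydrate-rich food. Both kinases are controlled largely by phosphorylation and binding, which transcript arrays do not measure.

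The comparison of weaned with suckling mice asks whether beta cells of the same age differ in transcripts of this system after early weaning. No member passed. By limma with Benjamini-Hochberg adjustment over all genes, 0 of 35 had an adjusted p under 0.05, where 3 of 19938 genes (0.015%) passed, and the smallest adjusted p of a member was 0.518. Ulk1 and Flcn had an unadjusted p under 0.05, which makes 2 members, both higher in weaned mice. Both kept that direction in all 15 alternative fits, but which members were at this level depended on the fit. There were 1 higher and 1 lower with the acinar level of each array as a covariate, without suckling replicate 2, without suckling replicates 2 and 9 and without weaned replicate 12, and 2 higher and 1 lower after quantile normalization. Without weaned replicate 5 there were 1 higher and 2 lower, Nprl2 and Ddit4. The 2 are 5.71% of the members, against 7.58% of all genes and 9.22% of the 7878 genes in the members' range of level. Over all genes these were 875 higher (4.39%) and 637 lower (3.19%), and after subtraction of each array's median the counts were 728 higher and 787 lower. The arrays of the groups did not overlap for 3 members, Ulk1, Flcn and Prkag2, or 8.57%. The share was 7.32% of all genes and 8.57% of genes in the members' range of level. All 3 had weaned arrays above suckling arrays, and 2 members did after quantile normalization or centring of the arrays. The members' shares of 5.71% and 8.57% lie near those of all genes.

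The differences were also small in size. The median absolute log2 difference of the members was 0.0759, against 0.118 over all genes and 0.126 in the members' range of level. The widest member difference was 0.47. A difference over 0.25 in either direction was seen for 17.1% of members, 18.1% of all genes and 20.8% in that range. The 95% interval of the difference lay inside -1 to 1 for all 35 members, which leaves no member with a 2-fold difference inside its interval. So did that of 19467 of 19938 genes. The interval lay inside -0.5 to 0.5 for 22 members and for 12029 of all genes. The median standard error was 0.152 log2 units for the members and 0.145 for all genes, so smaller differences than these intervals span were not detectable with 7 arrays.

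**Figure D1:**
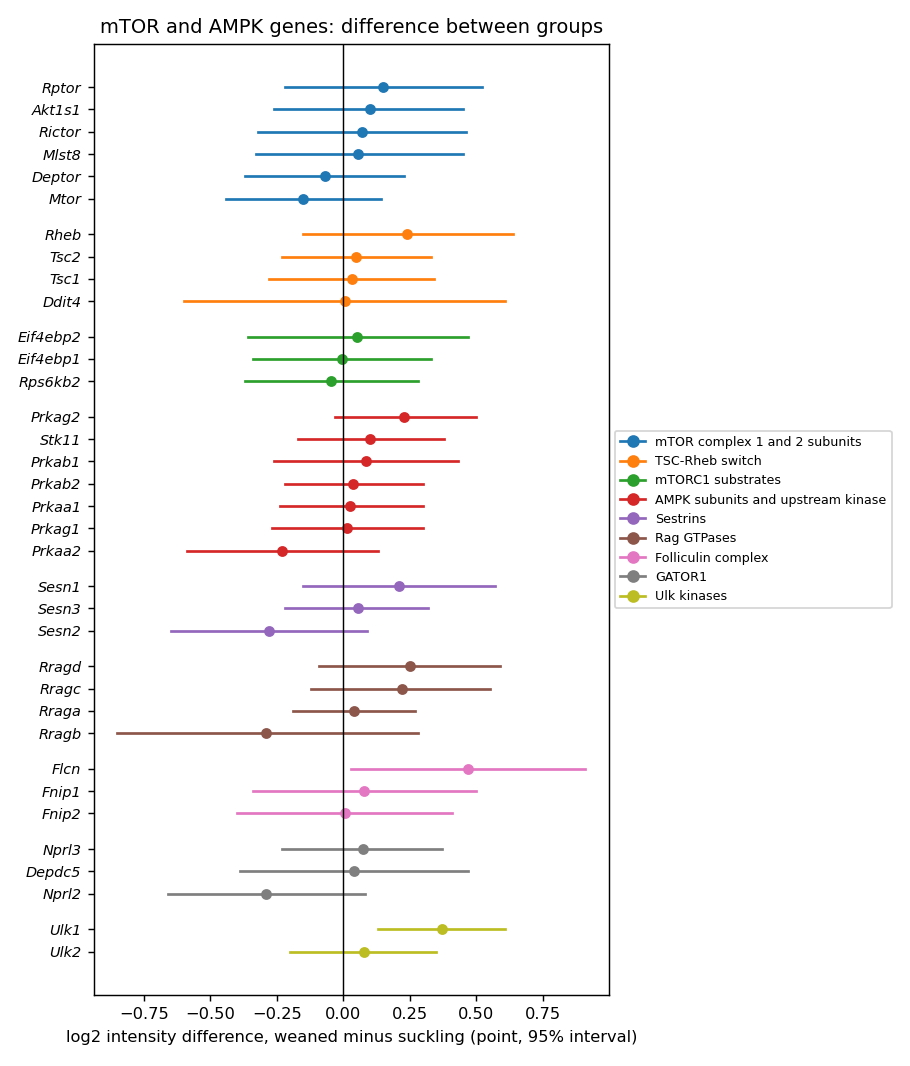
Log2 intensity difference, weaned minus suckling, of each of the 35 genes (points) with its 95% interval from limma (lines), grouped and coloured by role. The intervals of Ulk1 and Flcn lie above 0, and those of the other 33 genes include it.

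Ulk1 encodes the kinase that starts autophagy, which AMPK activates and complex 1 inhibits. Weaned replicates 4, 5 and 12 gave 6.35, 6.22 and 6.11 log2 units, against 5.83, 5.88, 5.86 and 5.87 on suckling replicates 2, 9, 11 and 12. The suckling arrays lay within a narrow band and all weaned arrays lay above it. The means were 6.23 ± 0.12 (SD, n = 3) and 5.86 ± 0.02 (n = 4), a 1.29-fold difference of 0.37 log2 units (SE 0.11, 95% interval 0.13 to 0.61). Its unadjusted p of 0.00641 became an adjusted p of 0.518 by limma over all genes. An exact two-sided permutation test of the 7 arrays gave p = 0.0286, the smallest that 3 against 4 arrays allow. Ulk1 was the only member with an unadjusted p under 0.05 in each of 15 alternative fits, with differences of 0.31 to 0.43. Its difference was 0.33 with the acinar level as a covariate and 0.36 without suckling replicates 2 and 9.

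Ulk2, which encodes the related kinase, was measured at 6.58, 6.82 and 6.73 on the weaned and 6.46, 6.73, 6.58 and 6.76 on the suckling arrays, which overlap. Its difference was 0.076 (SE 0.12, 95% interval -0.20 to 0.35). Taken within each array, the log2 difference between Ulk1 and Ulk2 was -0.48 ± 0.22 in weaned mice (SD, n = 3) and -0.77 ± 0.12 in suckling mice (n = 4). The weaned arrays ran from -0.62 to -0.22 and the suckling arrays from -0.89 to -0.63. The difference between the groups was 0.29 (exact permutation p = 0.0571, adjusted p = 0.686 over 12 pairs). A single pair could not have reached an adjusted p under 0.343 in this design.

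Flcn encodes folliculin, which works with Fnip1 and Fnip2 as the GTPase-activating protein of RagC and RagD. Weaned replicates 4, 5 and 12 were at 6.21, 6.07 and 5.99. On the suckling arrays it was at 5.08 on replicate 2, 5.60 on replicate 9, 5.98 on replicate 11 and 5.81 on replicate 12. The highest suckling array lay just under the lowest weaned array, and suckling replicate 2 lay well below all others. The means were 6.09 ± 0.11 (SD, n = 3) and 5.62 ± 0.39 (n = 4), a 1.38-fold difference of 0.47 (SE 0.20, 95% interval 0.03 to 0.91, unadjusted p = 0.0402, adjusted p = 0.649 by limma). An exact permutation test gave p = 0.0571, and 7 of 15 alternative fits kept an unadjusted p under 0.05. The lowest Flcn levels belonged to suckling replicates 2 and 9, which have the most acinar signal. The difference was 0.29 without suckling replicate 2, 0.22 with the acinar level as a covariate and 0.19 without both arrays (unadjusted p = 0.0626, 0.226 and 0.198 by limma).

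The proximal promoters of Ulk1 and Flcn, the members with the smallest p, are shown for their sequence context. Each is the 250 bases before the annotated start of the gene, from RefSeq, build GRCm38.p6, read 5′ to 3′ along the gene. Capitals mark the GC box CCGCCC in Ulk1 (chr5:110810082-110810331, minus strand) and the cAMP response element TGACGTCA in Flcn (chr11:59810040-59810289, minus strand).
Ulk1: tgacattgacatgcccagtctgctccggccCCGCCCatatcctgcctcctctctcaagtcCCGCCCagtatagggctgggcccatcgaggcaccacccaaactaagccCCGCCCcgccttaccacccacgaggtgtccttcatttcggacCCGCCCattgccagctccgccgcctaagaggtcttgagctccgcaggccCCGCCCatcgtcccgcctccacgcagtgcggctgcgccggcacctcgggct
Flcn: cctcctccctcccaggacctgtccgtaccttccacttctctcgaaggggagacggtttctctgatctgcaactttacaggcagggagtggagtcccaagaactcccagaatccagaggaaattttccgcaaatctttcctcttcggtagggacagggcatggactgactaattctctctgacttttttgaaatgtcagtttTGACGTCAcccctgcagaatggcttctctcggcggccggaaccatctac

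These windows differ in composition, with 67.2% G and C in Ulk1 and 52.0% in Flcn. Ulk1 holds 5 GC boxes and Flcn none. The cAMP response element of Flcn begins 49 bases before the start. It was found in 1.55% of all 32851 promoter windows of this length and in no other of the 33 listed genes with a window, which have 36 windows in all. The GC box was found in 24 of these 36 windows, against 32.7% of all windows. The E-box core CACGTG, which Tfeb, a lysosomal transcription factor downstream of the Rag GTPases, can bind, lay in the windows of Fnip1, Rheb, Rragb and Rragc, and in 6.02% of all windows. The Atf4 element TGATGNAA (3.45% of all windows) and the FoxO element TGTTTAC (3.17%) had no match in the 36 windows. Both strands were searched, and a match describes letters only.

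**Figure D2:**
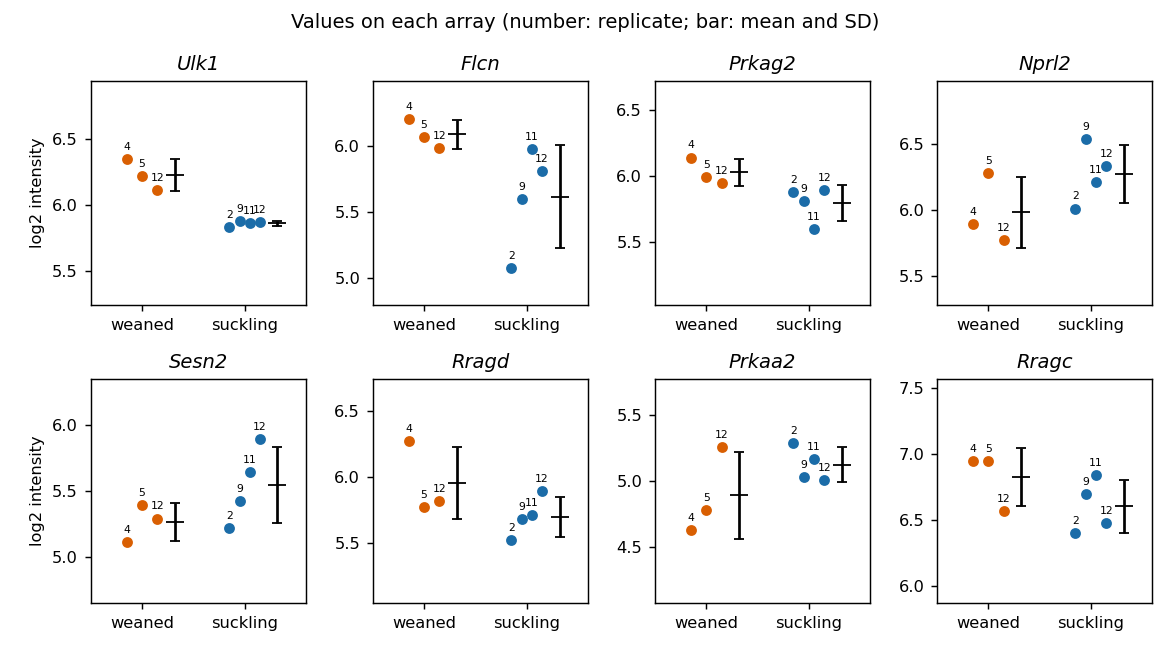
Log2 intensity of the 8 genes with the smallest unadjusted p on each of the 3 weaned (orange) and 4 suckling (blue) arrays, with replicate numbers, and the mean and SD of each group as bars. The groups do not overlap for Ulk1, Flcn and Prkag2 and overlap for the other 5.

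Both partners of Flcn had overlapping groups. Fnip1 was at 7.16, 6.37 and 6.74 on the weaned arrays and between 6.53 and 6.94 on the suckling arrays, a difference of 0.079 (95% interval -0.34 to 0.50). Fnip2 differed by 0.0054 (95% interval -0.40 to 0.41). The weaned arrays of Fnip1 lay on both sides of the suckling arrays. Whether Flcn differed from either partner was not tested.

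The Rag GTPases bind complex 1 as pairs of RagA or RagB with RagC or RagD. Rragc was at 6.95, 6.95 and 6.57 log2 units on the weaned arrays and 6.40, 6.70, 6.84 and 6.48 on the suckling arrays, a difference of 0.22 (SE 0.15, adjusted p = 0.78 by limma). Rragd was at 6.27, 5.77 and 5.82 against 5.52, 5.68, 5.71 and 5.89, a difference of 0.25 (SE 0.15, adjusted p = 0.737 by limma). Both had a higher weaned mean, and in both the groups overlapped. Without weaned replicate 4, the highest array of Rragd, its difference was 0.094. Rraga had the smallest standard error of all members, 0.10, at 8.63 to 8.70 in weaned and 8.52 to 8.66 in suckling mice, with a difference of 0.039 (95% interval -0.19 to 0.27). Rragb varied widely within the weaned group, at 6.09, 5.88 and 4.93, where suckling arrays lay between 5.74 and 6.10. Its difference of -0.29 (SE 0.25) rested on weaned replicate 12 and was 0.067 without it.

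GATOR1, formed by Depdc5, Nprl2 and Nprl3, inactivates RagA and RagB when amino acids are scarce. Nprl2 was lower in mean in weaned mice, at 5.89, 6.28 and 5.77 against 6.01, 6.54, 6.21 and 6.33, a difference of -0.29 (SE 0.17, adjusted p = 0.72 by limma). Weaned replicate 5 lay among the suckling arrays, and without it the difference was -0.44 (unadjusted p = 0.0278, adjusted p = 0.732, limma). Without weaned replicate 12 it was -0.19. Nprl3 differed by 0.075 (95% interval -0.23 to 0.37) and Depdc5 by 0.039 (-0.39 to 0.47), so the subunits had no common direction.

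Sestrins restrain complex 1, and Sesn2 does so as a leucine sensor that is induced under stress. Sesn2 was at 5.11, 5.39 and 5.29 log2 units on the weaned arrays and 5.22, 5.42, 5.64 and 5.89 on the suckling arrays. The groups overlapped through suckling replicate 2, the array with the most acinar signal, and the difference was -0.28 (SE 0.17, 95% interval -0.65 to 0.09, adjusted p = 0.731 by limma). Leaving that array out gave -0.39, and leaving out suckling replicate 9 as well gave -0.50 (unadjusted p = 0.0147, adjusted p = 0.902, limma). With the acinar covariate it was -0.43 (unadjusted p = 0.0354, limma), and without suckling replicate 12, the highest array, it was -0.16. Sesn1, also a target of p53, differed by 0.21 (SE 0.16) and Sesn3, a target of FoxO factors, by 0.054 (SE 0.12). The Sestrins thus had means on either side of 0, and the pair of Sesn1 and Sesn3 did not separate the groups (exact permutation p = 0.371).

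AMPK subunits showed no common direction of any size. Prkag2, a gamma subunit, was at 6.14, 5.99 and 5.95 log2 units on the weaned arrays and 5.88, 5.81, 5.60 and 5.89 on the suckling arrays. All weaned arrays lay above all suckling arrays. The difference was 0.23 (SE 0.12, 95% interval -0.03 to 0.50, adjusted p = 0.687 by limma), and an exact permutation test gave p = 0.0286. Prkaa2, the catalytic alpha 2 subunit, was at 4.63, 4.78 and 5.26 against 5.29, 5.03, 5.17 and 5.01, a difference of -0.23 (SE 0.16, adjusted p = 0.777 by limma). Weaned replicate 12 lay among the suckling arrays. Without it the difference was -0.42 (unadjusted p = 0.0142, adjusted p = 0.617, limma), and without weaned replicate 4 it was -0.11.

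The other subunits were closer together. Prkaa1, the alpha 1 subunit, was at 7.95 to 8.30 in weaned and 7.98 to 8.19 in suckling mice, a difference of 0.026 (95% interval -0.24 to 0.30). Prkag1 differed by 0.012 (-0.27 to 0.30), Prkab1 by 0.085 (-0.26 to 0.43) and Prkab2 by 0.038 (-0.22 to 0.30). Stk11, which encodes Lkb1, the main kinase upstream of AMPK, differed by 0.10 (-0.17 to 0.38). Within arrays, the difference between Prkaa1 and Prkaa2 was 3.23 ± 0.49 in weaned (SD, n = 3) and 2.97 ± 0.12 in suckling mice (n = 4), which overlapped (exact permutation p = 0.429). That of Prkag1 and Prkag2 was 1.5 ± 0.24 and 1.72 ± 0.24 (p = 0.343, exact permutation). Such within-array values compare changes, since probe sets of different genes share no scale of level.

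Subunits of the mTOR complexes differed by -0.15 to 0.15 log2 units. Mtor itself was at 6.31, 6.05 and 6.15 on the weaned and 6.21, 6.19, 6.32 and 6.55 on the suckling arrays, a difference of -0.15 (95% interval -0.44 to 0.14). Rptor of complex 1 differed by 0.15 (-0.22 to 0.52) and Rictor of complex 2 by 0.069 (-0.32 to 0.46). Single arrays moved these values, with Mtor at -0.068 without suckling replicate 12 and -0.087 without weaned replicate 5, Rictor at 0.22 when suckling replicate 12 was left out and -0.013 when suckling replicate 11 was, and Rptor at 0.023 without weaned replicate 4, 0.046 without suckling replicate 2 and 0.28 without weaned replicate 12. The shared subunit Mlst8 differed by 0.056 (-0.33 to 0.45). Of the inhibitory subunits, Akt1s1, which encodes PRAS40, differed by 0.10 (-0.26 to 0.45) and Deptor by -0.068 (-0.37 to 0.23).

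Rheb, the GTPase that activates complex 1, was at 8.59, 8.03 and 7.90 on the weaned and 7.80, 8.12, 8.01 and 7.81 on the suckling arrays. Weaned replicate 4 was the highest array and the rest overlapped, with a difference of 0.24 (SE 0.17). Without that array it was 0.033, and without weaned replicate 12 it was 0.38. The brakes on Rheb, Tsc1 and Tsc2, differed by 0.031 (-0.28 to 0.34) and 0.047 (-0.23 to 0.33). Ddit4, also called Redd1, acts through the TSC proteins and is induced by hypoxia and glucocorticoids. It was at 6.50, 7.65 and 6.38 in weaned and 6.69, 6.90, 6.81 and 6.95 in suckling mice. Weaned replicate 5 stood far above and the other weaned arrays below every suckling array, so the difference was 0.0056 with the widest interval of all members (-0.60 to 0.61). Without weaned replicate 5 it was -0.40 (unadjusted p = 0.0139, adjusted p = 0.714, limma). Weaned replicate 5 also had the highest mean of the immediate early and dissociation genes, 6.58, where the other arrays lay at 5.64 to 6.15. The part of this in the Ddit4 value was not tested.

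Among the direct substrates of complex 1, the translation repressor genes Eif4ebp1 and Eif4ebp2 differed by -0.0061 (-0.34 to 0.33) and 0.053 (-0.36 to 0.47). Eif4ebp2 spread from 7.87 to 8.67 within the weaned group. Rps6kb2, which encodes a ribosomal protein S6 kinase, differed by -0.045 (-0.37 to 0.28).

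Most members had a slightly higher mean in weaned mice. This held for 27 of 35, or 77.1%, against 50.1% of all genes and 59.1% of the 7878 genes in the same range of level. The median difference was 0.053, against 0.000 over all genes and 0.042 in that range. The mean deviation of the members from their own averages was 0.055, 0.072 and -0.040 on weaned replicates 4, 5 and 12, and -0.131, -0.042, 0.010 and 0.077 on suckling replicates 2, 9, 11 and 12. The highest and the lowest array were both suckling, and the arrays with the 3 highest acinar means had the 3 lowest values. Whether acinar RNA set this order was not tested beyond the fits that follow. On suckling replicate 2, 6 of 35 members exceeded their own median over the 7 arrays, and on suckling replicate 12 it was 23.

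The count of higher means depended on the arrays used. With 1 array left out it was 23, 23 and 24 without weaned replicates 4, 5 and 12, and 19, 24, 25 and 27 without suckling replicates 2, 9, 11 and 12. Of all genes, 49.2% to 51.3% had a higher mean in these fits. The count for the members was 19 with the acinar covariate (54.3%, against 49.6% of all genes). Without suckling replicates 2 and 9 it was 17 (48.6%, against 49%), and the median was -0.008. Quantile normalization gave 22 (62.9%, against 49.6% of all genes) and centring of the arrays 24 (68.6%, against 45.5%). Of the 35 members, 15 kept their direction in all 15 alternative fits. Another prior, the filter on level and the mean of probe sets could not change a direction. They leave the difference of a gene with 1 probe set as it is.

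**Figure D3:**
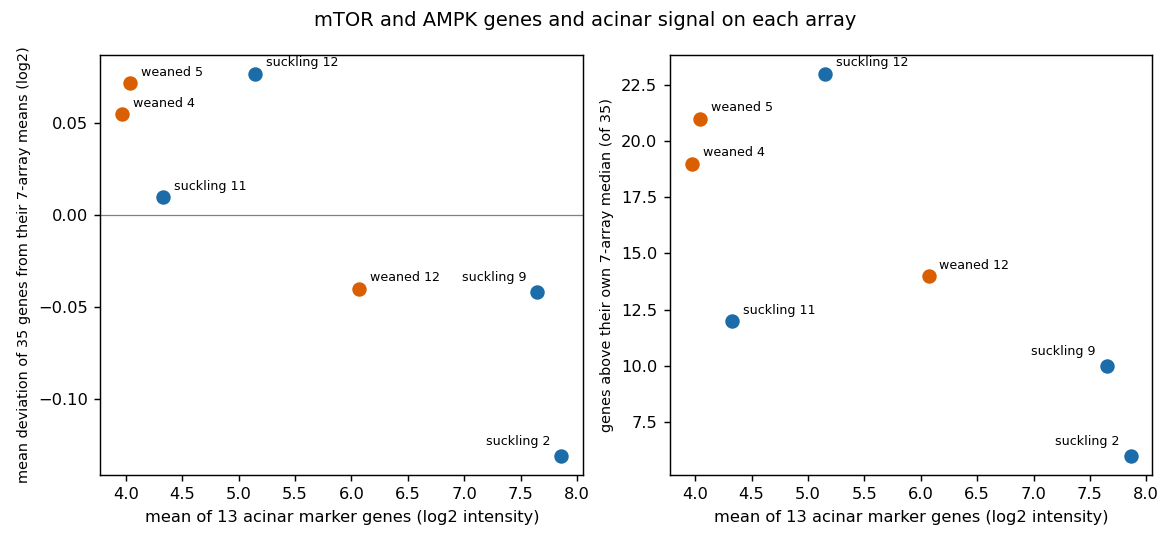
Each point is 1 array (weaned orange, suckling blue) placed by the mean log2 intensity of 13 acinar markers. The left panel shows the mean deviation of the 35 genes from their 7-array means, lowest on suckling replicate 2 (-0.131), and the right panel the number of the 35 above their own median, which runs from 6 to 23.

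For 12 pairs of paralogs or linked members the within-array difference was compared between the groups. The design could hardly give a call, since the smallest p of 3 against 4 arrays is 0.0286 and 7 of 12 pairs would need it to pass an adjusted p of 0.05. Adjusted p ran from 0.686 to 0.886, and 0 of 12 pairs had an unadjusted p under 0.05 (exact permutation tests). Differences of like size to that of the Ulk kinases were found for Rraga and Rragb (0.32, exact permutation p = 0.429) and for Sesn2 and Ddit4 (-0.29, exact permutation p = 0.6). The former was -0.012 without weaned replicate 12 and the latter 0.055 without weaned replicate 5, while that of the Ulk kinases was 0.16 without weaned replicate 4.

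**Figure D4:**
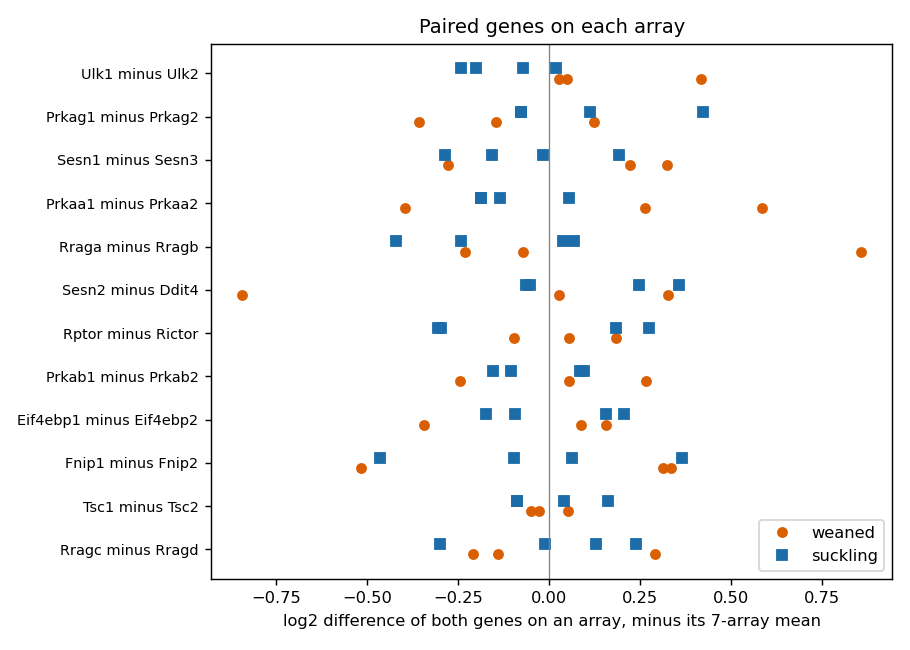
For each of 12 gene pairs, the log2 difference of both genes on an array, centred on its mean over the 7 arrays (orange circles weaned, blue squares suckling). Weaned arrays lie above suckling arrays for Ulk1 minus Ulk2 and the groups overlap in the other 11 pairs.

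The wider pathway was read from 10 further lists with 178 measured genes of 192. None passed over all genes by limma, and no list was tested as a set. At an unadjusted p under 0.05 there were 12 higher (6.74%) and 3 lower (1.69%) in weaned mice, against 4.39% and 3.19% of all genes. All genes include many dim ones, while 7 of the 178 were under the olfactory level in both groups. Of the 7878 genes in the members' range of level, 491 were higher and 235 lower, which makes 9.22% in either direction. After subtraction of each array's median, 728 of all genes were higher and 787 lower. Counts of the list genes in that fit are not given, so these are not set against the 12 and 3. Weaned arrays lay above every suckling array for 12 of the 178 genes and below for 4. Over all 19938 genes this held for 777 and 683, and in the members' range of level for 437 and 238. The genes named from these lists had adjusted p of 0.589 to 0.826 by limma.

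Of 17 AMPK targets 2 were at an unadjusted p under 0.05, both higher in mean in weaned mice (11.8%, against 4.39% of all genes). Tbc1d4, a Rab regulator of glucose transporter traffic, was at 5.10, 4.97 and 5.01 log2 units against 4.85, 4.74, 4.33 and 4.58 (0.40, SE 0.14). Crtc2, a coactivator of Creb that AMPK-related kinases keep out of the nucleus, was at 7.19, 7.36 and 7.2 against 7.09, 6.72, 6.94 and 7.08 (0.29, SE 0.13). In both genes the groups did not overlap. Of 20 AMPK activators and related kinases 1 was at this level, the microtubule affinity kinase gene Mark4 (0.37, SE 0.15).

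Of 20 lysosomal genes of the Tfeb network 3 were at an unadjusted p under 0.05, all higher in mean in weaned mice. That is 15%, against 4.39% of all genes, in a list too short to read a share from. The 3 were Clcn7, a lysosomal chloride transporter (0.52, SE 0.18), Tpp1, a lysosomal peptidase (0.33, SE 0.13), and Map1lc3b, the autophagosome protein LC3B (0.25, SE 0.10). All 3 had weaned arrays above every suckling array. Map1lc3b was at 9.16, 9.14 and 9.24 against 8.91, 8.87, 9.03 and 8.91. The median of this list was 0.077 and became -0.0041 with the acinar covariate. Among 15 genes of autophagy initiation, Ambra1, which binds the Beclin complex, was lower in mean in weaned mice (-0.26, SE 0.11) and no other reached that level.

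In the amino acid and lysosome arm of complex 1, with 19 genes, Lamtor4 of the Ragulator complex was at 8.21, 8.57 and 8.57 against 8.02, 7.89, 8.32 and 7.73 (0.46, SE 0.16), which overlap. In the growth factor arm, with 20 genes, Phlpp1, a phosphatase of Akt (0.45, SE 0.18), and the kinase gene Sgk1 (0.44, SE 0.20) had higher weaned means. Among 19 outputs of complex 1, Lpin1, which encodes the phosphatidate phosphatase lipin 1, was lower in mean in weaned mice, at 5.92, 5.85 and 5.50 against 6.07, 5.98, 6.05 and 6.11 (-0.30, SE 0.13). All weaned arrays of Lpin1 lay below every suckling array.

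Of 27 genes of the Atf4 pathway, which answers amino acid shortage, Shmt2, a mitochondrial enzyme of folate metabolism, differed by 0.43 (SE 0.17) and Eif2ak3, which encodes the kinase Perk, by -0.32 (SE 0.14). Of 10 glucocorticoid targets, the immunophilin gene Fkbp5 differed by 0.52 (SE 0.18) and Nfkbia, an inhibitor of NF-kappaB, by 0.30 (SE 0.12). Among 11 p53 and FoxO targets none had an unadjusted p under 0.05, and Phlda3 (-0.20) and Bnip3 (0.15) had the smallest p. The medians of the 10 lists ran from -0.025 to 0.121. The highest, that of the growth factor arm, was 0.041 with the acinar covariate, 0.043 without suckling replicates 2 and 9 and 0.063 without weaned replicate 4. That of the AMPK targets was 0.049, and -0.012 without suckling replicates 2 and 9.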

How the data were processed

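Intensity values, 1 per probe set and array on a linear scale, were deposited by the authors, who made them with RMA and Partek 6.6, per the submitters' processing notes, which give no settings. RMA shrinks differences of dim probe sets. Log2 was taken. Of 35556 probe sets 21789 carry 1 gene symbol, and symbols were updated by gene ID through RefSeq. The probe set with the highest mean stood for each of 19938 genes. No dim gene was removed.

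Weaned and suckling arrays were compared with limma 3.58.1 (R 4.3.3), two-sided, without covariates, and p was adjusted by Benjamini-Hochberg across all genes, at a threshold of 0.05. The fit was also run on simulated data with independent noise and with changes larger than that of any member. That run does not bear on differences of the size reported here. Pairs of genes were tested by exact permutation, two-sided, over the 35 divisions of the arrays into 3 and 4.

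The members and lists were chosen with earlier results of these data known. Values on every array are given for the 8 members with the smallest p and others with a spread worth showing, the latter chosen after their values were seen. From each other list, up to 4 genes at an unadjusted p under 0.05, or else the 2 smallest, are named. Promoter motifs were also chosen after the data were seen. The alternatives were another prior, 2 normalizations, a filter at the 25th percentile of level, the mean of probe sets, array weights, an acinar covariate and leaving out each array. A fit without suckling replicates 2 and 9 was added after the data were seen.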

Additional observations from a re-analysis of the deposited data

Results flagged for a closer look

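In the suckling group, an array stood apart from the other 3 by Dixon's criterion for 3 of 35 members, where chance gives about 1 in 20. Tsc1 was at 5.99 log2 units on suckling replicate 2, with the others at 6.42 to 6.46. Eif4ebp2 was at 8 on the same array, with the others at 8.29 to 8.33. Rraga was at 8.52 on suckling replicate 12, with the others at 8.65 to 8.66. Groups of 3 arrays and genes other than the members were not examined in this way, so 3 of 35 is not read as an excess.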

How the results depend on the processing

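No member passed an adjusted p of 0.05 in any of the 15 alternative limma fits, where the smallest adjusted p of a member was 0.455, nor at an adjusted p of 0.1 in the fit reported. The members at an unadjusted p under 0.05 were 1 with array weights and 1 to 3 with 1 array left out, and their directions were then mixed in some fits. Over all genes, the number passing was 3. It was 7 at an adjusted p of 0.1, 7 with the filter on dim genes, 9 with an intensity trend and robust prior, 5 with the mean of probe sets, 5 with quantile normalization, 1 to 3 with 1 array left out and 0 without suckling replicates 2 and 9 (1089 genes at an unadjusted p under 0.05). The median difference of the members was 0.019 to 0.078 with 1 array left out. The 8 members with the smallest p kept their direction in each fit, while 20 of the 35 members, Ddit4 among them, did not. No paired analysis was possible because the labels name no pairs of mice. Precision is limited by the 7 arrays, and since amplified RNA of each mouse was measured once, technical scatter cannot be told apart from that between mice.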
